A study of Mus musculus with 6 samples.

Results

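The 39 genes described here make up a DNA replication and S-phase module, read in EMT6, a mammary carcinoma line of the mouse grown in culture. They were taken as listed symbols, covering the replicative helicase, origin licensing, the polymerases and their clamp, nucleotide supply, replicative chromatin and the E2F factors, by a rule that names no measured value, although the list was drawn up with earlier results of these data known. All 39 were found among the 53465 genes of the table, and all 39 passed the filter on low counts, which 14217 genes passed. PolyA RNA was measured in 3 libraries of cells kept with an isotype control antibody (labelled Parental, here PVITRO) and in 3 libraries of cells kept with anti-PD-L1 (labelled anti-PD-L1 Resistant, here PTRVITRO). Both antibodies were given at 0.5 μg/ml for longer than 4 weeks in culture, with no immune cells named, and both groups started from EMT6 cells with no other genetic change or drug named. PD-L1 is the ligand through which tumor cells inhibit T cells that carry PD-1, and Resistant is the submitters' name for the long exposure in a dish. The labels do not say that the 3 libraries of a group came from separate cultures, and the study treats replicates as technical unless it says otherwise, so the p-values measure only the spread between these libraries.

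DNA replication starts at origins that are licensed in G1, when the origin recognition complex, CDC6 and CDT1 load the MCM ring onto DNA. In S phase, CDC45 and GINS join the ring to form the active helicase, PCNA tethers the polymerases behind it, and FEN1 and LIG1 join the fragments of the lagging strand. Most of these genes are transcribed in late G1 and S phase by E2F factors. This follows inactivation of the RB family by cyclin-dependent kinases, among them the kinase of cyclin E. The combined mRNA level of these genes is therefore widely read as a sign of how many cells of a culture are cycling. In bulk RNA, fewer cells in S phase and less mRNA per S-phase cell cannot be told apart.

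Total counts ran from 17757341 (PTRVITRO replicate 3) to 32426739 (PTRVITRO replicate 1), and the common biological coefficient of variation was 5.00%. Levels are given as counts scaled to the size and upper quartile of the library (CPM), with mean ± SD over 3 libraries, and members are ranked by level per kilobase of principal transcript. The summed CPM of 7 epithelial keratin and adhesion markers was 1541 to 1664.5 in PVITRO and 1627 to 1707 in PTRVITRO, while Cdh1, the epithelial cadherin, did not pass the filter. No marker was called by edgeR, but the groups did not overlap for Krt18 (489 against 549 CPM) and Epcam (1.59 against 2.24 CPM), higher in PTRVITRO, or for Krt14 (8.76 against 7.33 CPM), lower. The summed CPM of 6 mesenchymal markers was 8601 to 9450 in PVITRO and 7927 to 8377 in PTRVITRO. Most of that sum was Fn1 (6645 against 5866 CPM, not overlapping), and Zeb1 (15.1 against 12.8 CPM) did not overlap either, while Vim was at 1889 and 1890.4 CPM. Of 12 leukocyte markers 1 passed the filter and 4 were at 0 in every library, and their sums were 11.9 to 13.4 CPM in PVITRO and 11.4 to 13.3 CPM in PTRVITRO. None of 4 endothelial markers passed the filter.

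The promoters were searched for the letters that E2F factors are known to bind. RefSeq start sites on GRCm38.p6 were held for 33 of the 39 genes, and the 250 bases before to 50 bases after each start were searched on both strands for the E2F-type letters TTTCCCGC, TTTCGCGC, TTTGCCGC and TTTGGCGC, whose matches may overlap. At least 1 match was present in 14 of the 33 genes (42.4%), against 2.61% of 27018 genes with such a window. The shorter letters CCAAT, those of the CCAAT box bound by NF-Y, were present in 20 of the 33 (60.6%) and in 41.1% of all genes. A match describes these letters only, and no factor binding was measured. Mcm4, Gins1, Gins2, Ccne2, Rfc2 and Pole were not among the 33. The 160 bases before the start are printed 5′ to 3′ on the gene's strand for 4 genes that hold E2F-type letters there and for 3 genes of the later results that do not, with the E2F-type and CCAAT letters in capitals:

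Mcm6, chr1:128359706-128359865 (- strand): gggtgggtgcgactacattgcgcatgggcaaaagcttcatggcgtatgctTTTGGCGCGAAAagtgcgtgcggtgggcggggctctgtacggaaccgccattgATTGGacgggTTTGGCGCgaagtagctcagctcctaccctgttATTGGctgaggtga

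Mcm5, chr8:75109349-75109508 (+ strand): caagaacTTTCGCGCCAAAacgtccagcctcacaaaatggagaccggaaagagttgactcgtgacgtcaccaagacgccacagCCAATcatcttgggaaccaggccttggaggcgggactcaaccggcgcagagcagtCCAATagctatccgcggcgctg

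Pola1, chrX:93632156-93632315 (- strand): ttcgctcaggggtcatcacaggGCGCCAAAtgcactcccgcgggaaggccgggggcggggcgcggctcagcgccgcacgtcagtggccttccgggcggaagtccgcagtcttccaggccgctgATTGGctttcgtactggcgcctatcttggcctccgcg

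Cdc6, chr11:98907991-98908150 (+ strand): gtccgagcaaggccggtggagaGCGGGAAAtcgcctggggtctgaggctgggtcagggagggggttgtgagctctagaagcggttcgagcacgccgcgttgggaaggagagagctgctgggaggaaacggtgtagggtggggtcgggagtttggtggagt

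Rrm1, chr7:102441535-102441694 (+ strand): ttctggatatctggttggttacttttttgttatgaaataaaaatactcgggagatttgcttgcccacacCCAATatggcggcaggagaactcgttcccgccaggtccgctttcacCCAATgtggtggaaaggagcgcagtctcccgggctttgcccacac

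Fen1, chr19:10204394-10204553 (- strand): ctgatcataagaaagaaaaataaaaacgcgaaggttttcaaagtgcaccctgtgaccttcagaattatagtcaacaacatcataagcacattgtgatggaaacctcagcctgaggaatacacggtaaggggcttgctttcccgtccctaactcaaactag

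Tyms, chr5:30073626-30073785 (- strand): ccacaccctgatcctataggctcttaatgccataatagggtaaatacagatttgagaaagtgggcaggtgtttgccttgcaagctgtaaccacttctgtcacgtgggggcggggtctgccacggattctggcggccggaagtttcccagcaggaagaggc

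In the Mcm6 window, which belongs to a helicase subunit, E2F-type matches began 110, 106 and 47 bases before the start, and the first pair overlapped. Mcm5, another subunit, held an overlapping pair 153 and 149 bases before the start. Single matches began 138 bases before the start in both Cdc6, the licensing ATPase, and Pola1, the catalytic subunit of the priming polymerase. The Rrm1 window held only CCAAT letters, 91 and 45 bases before the start, and the windows of Fen1 and Tyms held neither set of letters. The Fen1 window belongs to a RefSeq start at chr19:10204393, upstream of the start of its principal transcript at chr19:10204169. The bases searched around that RefSeq start did not reach the start of the principal transcript.

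Within the module the level of mRNA per kilobase spanned a wide range that was alike in both groups. Pcna, the sliding clamp, was the highest at 164 ± 3.06 CPM per kilobase in PVITRO and 171 ± 1.017 in PTRVITRO. It was followed by Tk1, the S-phase thymidine kinase, at 62.9 ± 3.69 and 58.7 ± 5.36, and by Rrm2, the regulatory subunit of ribonucleotide reductase, at 44.1 ± 1.03 and 47.3 ± 2.87. E2f2, an activating E2F factor, was the lowest at 0.707 ± 0.159 and 0.844 ± 0.0995 CPM per kilobase. The 6 MCM genes lay close together, between 17.99 (Mcm7) and 28.7 (Mcm5) CPM per kilobase in PVITRO. These levels and their order depend on the transcript taken for the length. With the union of all exons, Pcna stayed highest and E2f2 lowest, but Tk1 stood at 17.4 CPM per kilobase in PVITRO, below Rrm2 at 34.9, Rfc4 at 24.4 and Mcm5 at 24.3. The PVITRO ratio of Mcm2 to Mcm7 then moved from 1.36 to 0.985 and that of Rrm2 to Rrm1 from 1.54 to 3.37.

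**Figure D1:**
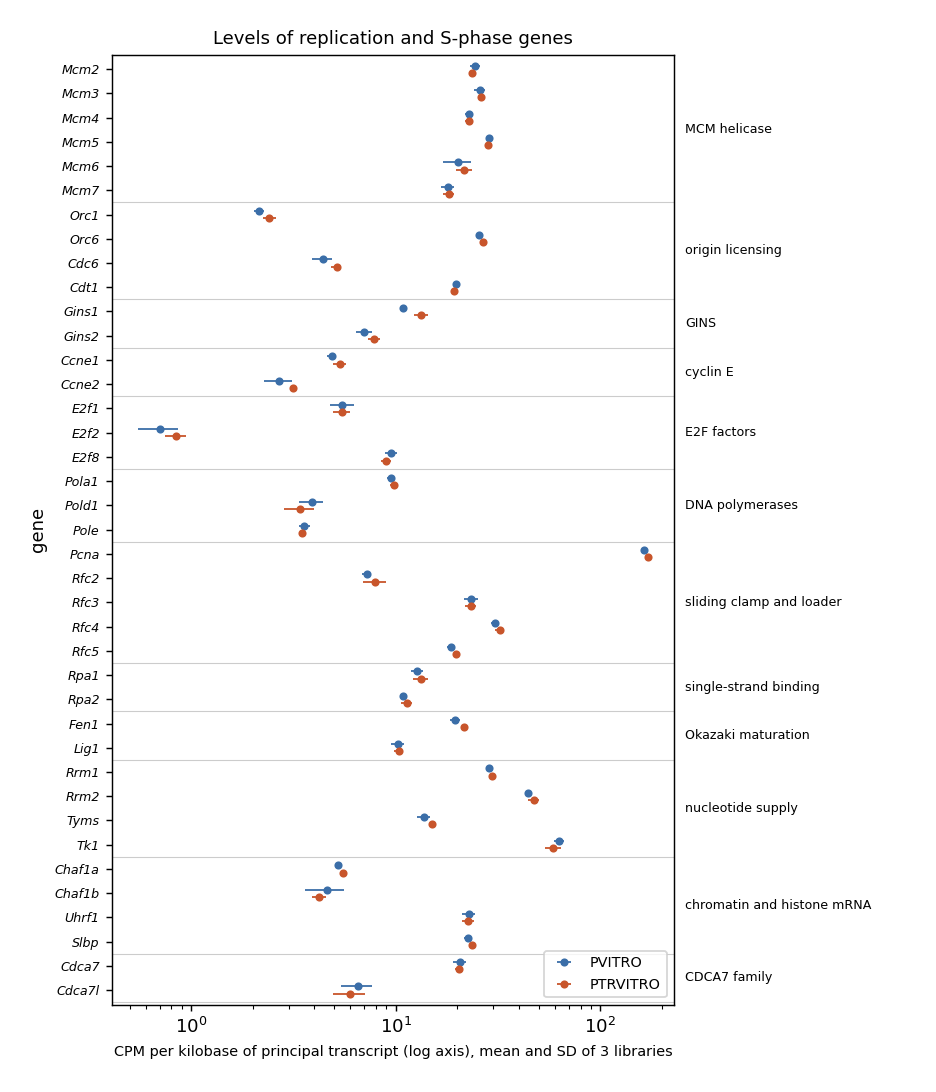
Level of each of the 39 genes in CPM per kilobase of principal transcript on a log axis, with points for the mean and lines for the SD of 3 libraries, in PVITRO (blue) and PTRVITRO (orange), grouped by role. Pcna stands highest and E2f2 lowest, and the 2 groups lie next to each other for every gene.

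PVITRO replicate 2 stood apart from the other PVITRO libraries in this module. It held the lowest value of its group in 29 of the 39 genes (74.4%), against 42.1% of all tested genes. The median deviation of the 39 genes from their mean over the 6 libraries, in log2 CPM, was 0.02, -0.10 and 0.01 in PVITRO replicates 1, 2 and 3, and 0.08, 0.04 and -0.03 in the PTRVITRO replicates. The same median over all tested genes stayed between -0.01 and 0.01 in every library. PTRVITRO replicate 3, the shallowest library, held the lowest value of its group in 25 of the 39 genes (64.1%), against 39.4% of all tested genes.

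PVITRO replicate 2 was also the lowest of the 6 libraries in the median deviation of several related lists. Its values were -0.08 for S-phase checkpoint and repair genes, -0.07 for other fork and origin genes and -0.05 for other replicative chromatin genes. For other E2F, RB and G1/S control genes it was lowest at -0.0233, close to PTRVITRO replicate 2 at -0.0202. For other nucleotide supply genes PTRVITRO replicate 1 was lowest, at -0.03, with PVITRO replicate 2 at -0.01. Over 38 mitosis and G2/M genes, PVITRO replicate 2 was lowest of its group in 17 (44.7%) and PVITRO replicate 3 in 21 (55.3%), with median deviations of -0.04 and -0.06. PVITRO replicate 1 was highest of its group in 30 of these 38 (78.9%, against 34.8% of all tested genes). PTRVITRO replicate 3 was lowest of its group for 25 of the 38 (65.8%), much as for the replication genes. PVITRO replicate 2 was the deepest library of its group, at 30115549 counts, while PTRVITRO replicate 3 was the shallowest of its own, at 17757341. The part that depth plays in these deviations was not tested. Several of the values that follow are also given without PVITRO replicate 2.

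**Figure D2:**
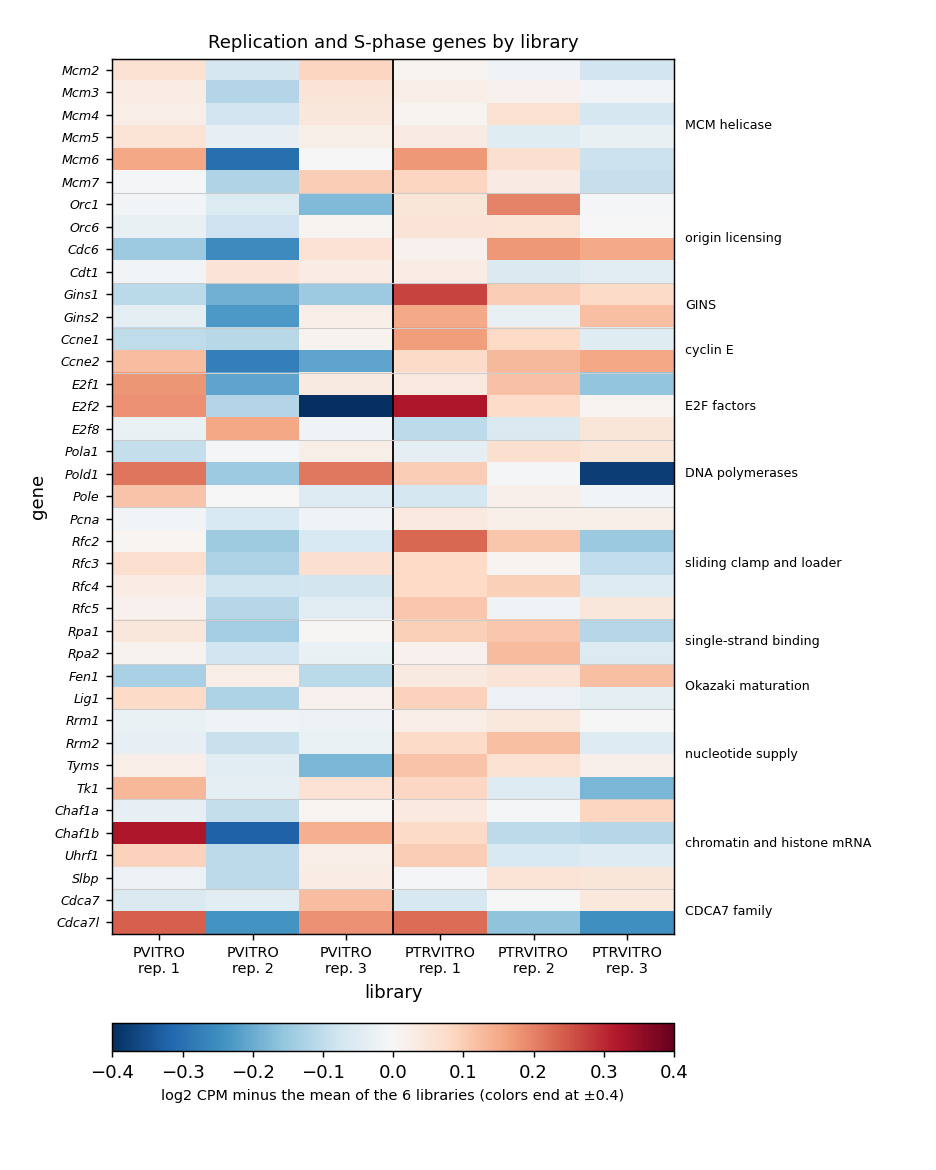
Deviation of each of the 39 genes in each library from its mean over the 6 libraries, in log2 CPM, with colors ending at ±0.4 and genes grouped by role. The column of PVITRO replicate 2 is mostly blue (median -0.10) and that of PTRVITRO replicate 1 mostly red (median 0.08).

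The comparison asked whether replication genes differ between cells kept with the PD-L1 antibody and cells kept with the isotype control. None of the 39 genes passed the test. In edgeR's quasi-likelihood fit, 0 of 39 had an adjusted p below 0.05, where 35 of the 14217 tested genes (0.246%) did, and the smallest adjusted p among the 39 was 0.172 (Gins1). DESeq2 and limma-voom also called 0 of the 39. At an unadjusted p below 0.05, edgeR listed 4 of the 39, all higher in PTRVITRO, against 5.26% of all genes in that direction, 6.13% in the other and 11.4% in either. That number was 1 with DESeq2 and 6 with limma-voom. The 3 PTRVITRO values lay above the 3 PVITRO values in 5 of the 39 genes, against 8.27% of all genes, and below them in none, against 9.33%; in either direction 17.6% of all genes did not overlap.

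The differences were small and leaned upward. The median log2 fold change over the 39 genes was 0.06, against -0.004 over all tested genes, and single genes ran from -0.15 (Pold1) to 0.31 (Gins1). The fitted change was above 0 in 28 genes (71.8%, against 48.5% of all genes) and below 0 in 11, a split that rests in part on PVITRO replicate 2, without which Mcm3, Mcm4, Mcm6, Mcm7, E2f1, Rfc3 and Lig1 turned below 0. Without PVITRO replicate 2, the median was 0.03 against -0.01 over all genes, and the 6 genes with an unadjusted p below 0.05 in edgeR were 3 higher (Gins1, Fen1 and Tyms) and 3 lower (Mcm2, Pold1 and Chaf1b), while over all genes that number moved from 1620 to 1982. The groups then did not overlap in 9 of the 39 genes, 5 of them higher, against 32.2% of all genes in either direction.

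The intervals bound how large a difference these libraries leave possible. The 95% interval of the ratio between groups stayed within 1.25-fold in either direction for 27 of the 39 genes (69.2%, against 62.9% of all tested genes). It stayed within 1.5-fold for 38 (97.4%, against 80.0%), and E2f2 was the exception. The median coefficient of variation between libraries of a group was 5.91% in PVITRO and 5.49% in PTRVITRO for the 39 genes, and 5.89% and 5.55% for all tested genes.

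**Figure D3:**
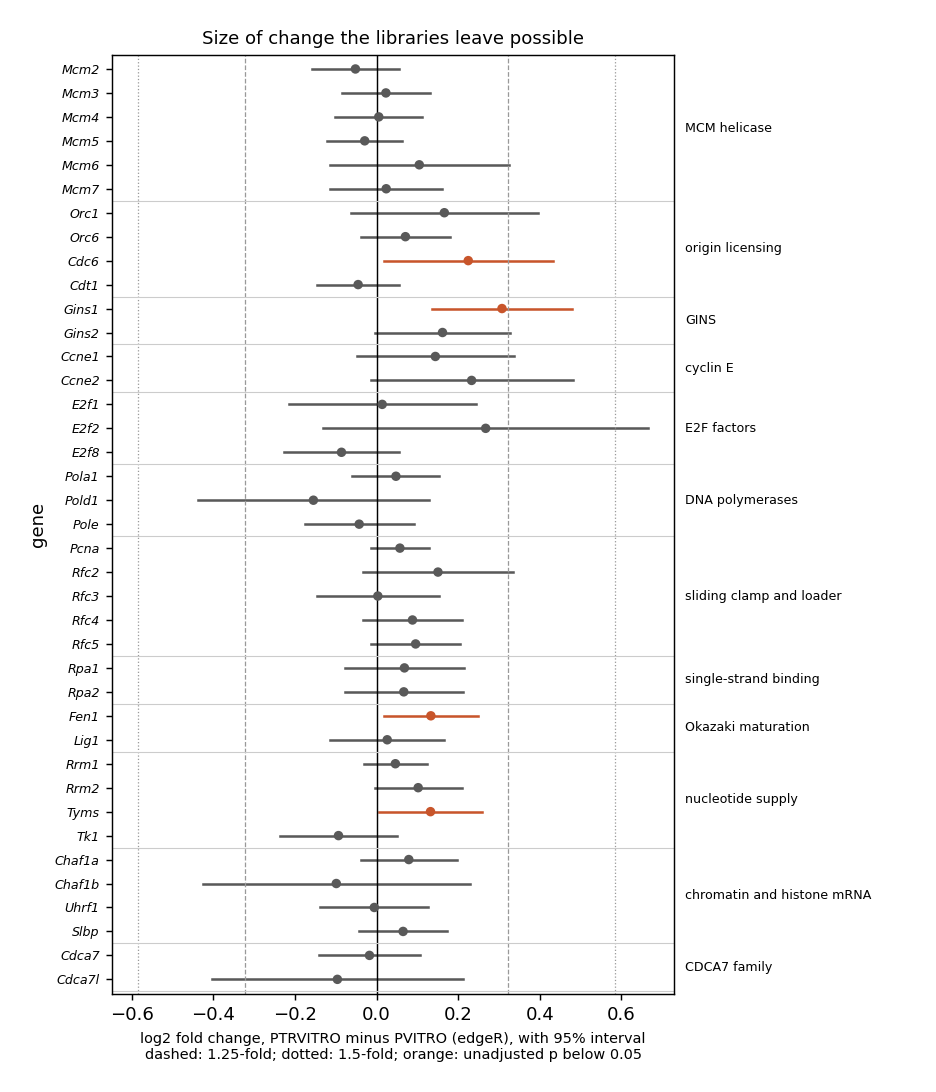
Log2 fold change of each of the 39 genes (PTRVITRO minus PVITRO, edgeR) with its 95% interval, grouped by role. Orange marks the 4 genes with an unadjusted p below 0.05, and dashed and dotted lines mark 1.25-fold and 1.5-fold; only the interval of E2f2 passes 1.5-fold.

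The MCM genes, whose products form the ring of 6 subunits that unwinds DNA, differed little between the groups. Mcm5, the subunit with the highest level, had 99.6, 93.8 and 97.5 CPM in PVITRO and 98.0, 92.8 and 93.9 CPM in PTRVITRO. Mcm7, the lowest per kilobase of principal transcript, had 53.4, 49.3 and 57.2 CPM in PVITRO and 56.8, 54.7 and 50.2 CPM in PTRVITRO. The groups overlapped in both genes, and their ratio per kilobase was 1.598 ± 0.09 in PVITRO and 1.55 ± 0.08 in PTRVITRO. The log2 fold changes of the 6 genes ran from -0.05 (Mcm2) to 0.10 (Mcm6), with 0.02 for Mcm3, 0.01 for Mcm4, -0.03 for Mcm5 and 0.02 for Mcm7. Mcm6 varied most, from 49.1 CPM in PVITRO replicate 2 to 67.3 CPM in PVITRO replicate 1, and its log2 fold change was -0.01 without PVITRO replicate 2. Its 95% interval for the ratio, 0.923 to 1.252, was the widest of the 6. Without PVITRO replicate 2 the fitted direction also turned for Mcm3 (-0.03), Mcm4 (-0.03) and Mcm7 (-0.03). Mcm7 shares 321 exonic bases with Ap4m1, at 20.3 CPM in PVITRO and 19.5 CPM in PTRVITRO. It shares 64 with Cops6, at 113.8 and 112.9 CPM, and both of these genes lie on the opposite strand.

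Of the 4 licensing genes, 3 had a fitted change above 0 and 1 below. Cdc6, the ATPase that recruits the MCM ring to origins (chr11:98907801-98923940), had 11.0, 10.1 and 12.6 CPM in PVITRO and 12.3, 13.7 and 13.5 CPM in PTRVITRO. PVITRO replicate 3 reached above PTRVITRO replicate 1, so the groups overlapped. Cdc6 was 1.17-fold higher in PTRVITRO (95% interval 1.01 to 1.35, unadjusted p = 0.0355, adjusted p = 0.392, edgeR), and without PVITRO replicate 2 its log2 fold change moved from 0.22 to 0.15.

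Orc1, the largest subunit of the origin recognition complex, had 6.81, 6.61 and 6.08 CPM in PVITRO and 7.09, 7.87 and 6.85 CPM in PTRVITRO. The groups did not overlap, though PTRVITRO replicate 3 lay just above PVITRO replicate 1. The log2 fold change of Orc1 was 0.17 ± 0.10 (SE, adjusted p = 0.587, edgeR). Orc6, the smallest subunit, had 32.9, 31.7 and 33.8 CPM in PVITRO and 34.8, 34.9 and 33.5 CPM in PTRVITRO, with overlap at PVITRO replicate 3 and a log2 fold change of 0.07. The exons of Orc6 share 171 bases with those of Vps35 on the opposite strand, at 176 CPM in PVITRO and 165 CPM in PTRVITRO. Cdt1, the partner of CDC6 in loading, had a log2 fold change of -0.05. Per kilobase, Cdt1 stood 4.54 ± 0.53 times above Cdc6 in PVITRO and 3.75 ± 0.35 times above it in PTRVITRO. The 2 ranges of that ratio overlapped, at 4.03 to 5.09 and 3.501 to 4.15.

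Gins1 showed the largest difference of the module. It encodes a subunit of the GINS complex, which joins the MCM ring and CDC45 to activate the helicase, and lies at chr2:150905400-150931280. Its level was 12.1, 11.4 and 11.8 CPM in PVITRO and 15.7, 13.98 and 13.8 CPM in PTRVITRO. Every PTRVITRO library was above every PVITRO library, with PTRVITRO replicate 1 the highest. The ratio was 1.24 (95% interval 1.10 to 1.39), with an unadjusted p of 0.00237 and an adjusted p of 0.172 in edgeR. The log2 fold change stayed between 0.24 and 0.34 when each library was left out in turn, and the unadjusted p stayed below 0.05 in all 6 of those fits and in the 7 other settings. The adjusted p ran from 0.0351, with no filter on low counts, to 0.414, without PTRVITRO replicate 2.

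Gins2, a second subunit of the same complex, had 28.1, 24.6 and 29.4 CPM in PVITRO and 32.0, 28.3 and 31.4 CPM in PTRVITRO. PTRVITRO replicate 2 fell below PVITRO replicate 3, so the groups overlapped. The log2 fold change of Gins2 was 0.16 ± 0.08 (SE, adjusted p = 0.445, edgeR), and 0.09 without PVITRO replicate 2. Its annotated exons share 2758 bases with those of Gse1 on the opposite strand, and Gse1 had 21.7 CPM in PVITRO and 17.7 CPM in PTRVITRO. The library kit marks strand, but whether the counting used it is not stated, so reads of that stretch could be split between the 2 genes. The sum of both was 49.7, 50.04 and 47.4 CPM in PVITRO and 49.7, 46.0 and 49.2 CPM in PTRVITRO, with overlapping groups and no higher PTRVITRO side. The same doubt about strand holds for Mcm7 and Orc6, described above, and for any other member that shares exons with a gene on the opposite strand. The remaining GINS subunits, Gins3 and Gins4, were read with the wider replication list.

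**Figure D4:**
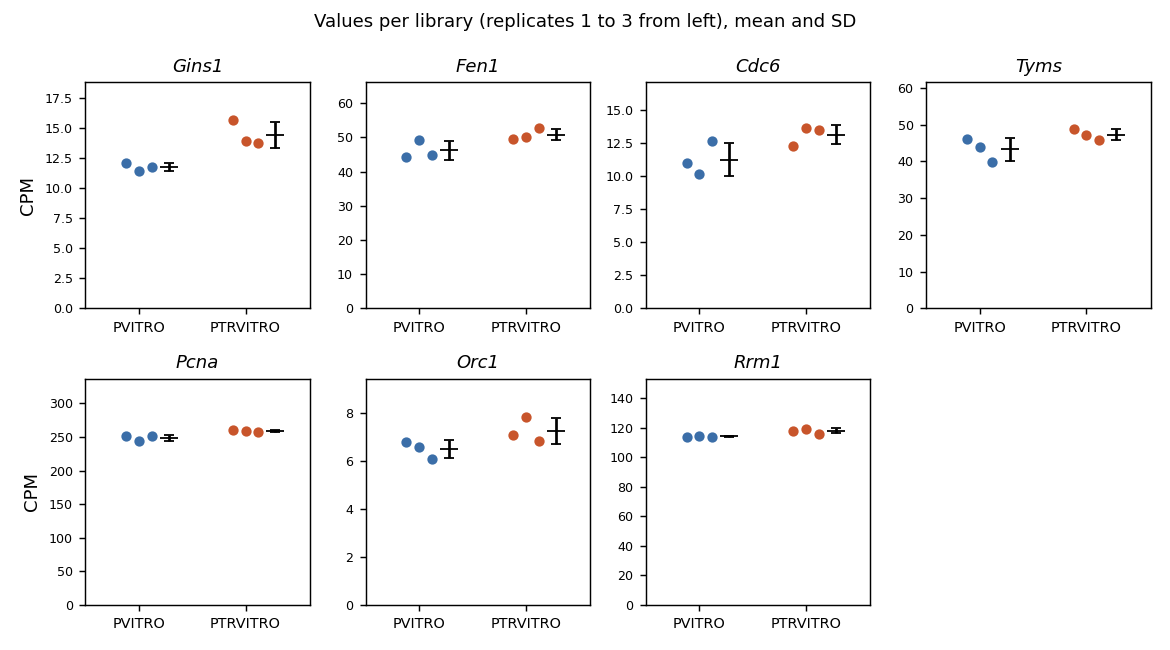
CPM in each library for the 7 genes with an unadjusted p below 0.05 or with groups that do not overlap; dots are replicates 1 to 3 from left in PVITRO (blue) and PTRVITRO (orange), and the black marks give the mean and SD of 3 libraries, on axes that start at 0. Gins1 runs from 11.4 to 12.1 CPM in PVITRO and from 13.8 to 15.7 CPM in PTRVITRO, while Rrm1 and Pcna differ by a few percent.

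The cyclin E genes, which drive entry into S phase with CDK2, were higher in the fit with overlapping groups. Ccne1 had 9.46, 9.41 and 10.3 CPM in PVITRO and 11.4, 10.7 and 9.82 CPM in PTRVITRO, and PTRVITRO replicate 3 lay below PVITRO replicate 3. Ccne2 had 9.50, 7.21 and 7.53 CPM in PVITRO and 9.19, 9.53 and 9.71 CPM in PTRVITRO. Here PVITRO replicate 1 alone reached the PTRVITRO range, and without it the log2 fold change moved from 0.23 to 0.37 (adjusted p from 0.467 to 0.345, edgeR). Without PVITRO replicate 2, the lowest library, it was 0.15 (adjusted p = 0.604, edgeR). That of Ccne1 was 0.14 (adjusted p = 0.575, edgeR). Ccne2 shares 609 exonic bases with Ints8 on the opposite strand, itself at 48.6 CPM in PVITRO and 49.8 CPM in PTRVITRO. The same doubt about strand therefore holds for the values of Ccne2. The sum of both, most of it Ints8, was 57.8, 56.6 and 55.8 CPM in PVITRO and 60.7, 58.2 and 59.0 CPM in PTRVITRO. In that sum the groups did not overlap.

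Of the 3 E2F factors, none had groups that stood apart. E2f8, an atypical E2F that represses the pathway, had the highest level per kilobase of the 3, with 33.4, 37.9 and 33.8 CPM in PVITRO and 31.7, 32.7 and 35.2 CPM in PTRVITRO. Its log2 fold change was -0.09, and -0.02 without PVITRO replicate 2. E2f2 had 4.11, 3.34 and 2.61 CPM in PVITRO and 4.53, 3.81 and 3.65 CPM in PTRVITRO. It was the member with the fewest reads, with a mean count of 96.5, and its ratio of 1.20 had the widest interval of the module, 0.913 to 1.59. Its log2 fold change of 0.27 was 0.43 without PVITRO replicate 1 and 0.12 without PVITRO replicate 3. E2f1, the activator most used as a marker of the pathway, had a log2 fold change of 0.01, which was -0.09 without PVITRO replicate 2.

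The catalytic subunits of the replicative polymerases leaned neither way. Pola1, which extends primers, had 48.0, 51.1 and 52.1 CPM in PVITRO and 49.97, 53.6 and 53.0 CPM in PTRVITRO, a log2 fold change of 0.05. Pole, the leading-strand polymerase, had 27.3, 25.2 and 24.3 CPM in PVITRO and 24.0, 25.6 and 25.03 CPM in PTRVITRO. The PTRVITRO range of Pole lay mostly inside the PVITRO range, with a log2 fold change of -0.04. Pold1, the lagging-strand polymerase, had 14.5, 11.3 and 14.4 CPM in PVITRO and 13.4, 12.4 and 9.60 CPM in PTRVITRO, so the lowest library of each group was the one that was low across the module. Its log2 fold change of -0.15 was the lowest of the 39 genes (ratio 0.898, 95% interval 0.739 to 1.09). It was -0.27 without PVITRO replicate 2 and -0.04 without PTRVITRO replicate 3. Per kilobase, Pole and Pold1 stood at 3.57 ± 0.21 and 3.88 ± 0.53 CPM in PVITRO and at 3.47 ± 0.11 and 3.41 ± 0.57 in PTRVITRO, so their order did not hold between groups.

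The fitted change of Pcna and the 4 clamp loader genes was above 0, although that of Rfc3 was 0.003 and turned below 0 under another filter and when some libraries were left out. Pcna had 252, 244 and 252 CPM in PVITRO and 261, 258 and 258 CPM in PTRVITRO. The groups did not overlap, and the spread inside each was small, with coefficients of variation of 1.87% and 0.595%. The ratio was nonetheless 1.04 (95% interval 0.990 to 1.09, adjusted p = 0.546, edgeR). Pcna-ps2, a processed pseudogene with 99.2% identity over 781 bases, was listed at 44.4 CPM in PVITRO and 47.1 CPM in PTRVITRO, and reads may be split between the copies. The sum of both was 297, 287 and 297 CPM in PVITRO and 309, 304 and 305 CPM in PTRVITRO, which kept the groups apart.

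The clamp loader genes load PCNA onto primed DNA. Rfc4, with the highest level of the 4 per kilobase, had a log2 fold change of 0.09 and Rfc5 of 0.10. Rfc4 shares 194 exonic bases with Eif4a2 on the opposite strand, at 447.6 CPM in PVITRO and 467.1 CPM in PTRVITRO. Rfc5 shares 499 with Wsb2, also on the opposite strand, at 120.4 and 119.9 CPM. The doubt about strand given for Gins2 holds for Rfc4 and Rfc5 as well. Rfc2, with the lowest level of the 5 genes of this role, had 37.9, 34.2 and 36.2 CPM in PVITRO and 44.3, 40.7 and 34.0 CPM in PTRVITRO. PTRVITRO replicates 1 and 2 lay above every PVITRO library and replicate 3 below them all. The log2 fold change of Rfc2 was 0.15 (adjusted p = 0.535, edgeR) and ran from 0.06 without PTRVITRO replicate 1 to 0.24 without PTRVITRO replicate 3. The ratio of Pcna to Rfc2 per kilobase was 22.7 ± 0.82 in PVITRO and 21.8 ± 2.89 in PTRVITRO.

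Rpa1 and Rpa2 encode subunits of the complex that covers single-stranded DNA. Rpa1 had 67.9, 59.7 and 65.9 CPM in PVITRO and 70.2, 70.8 and 60.7 CPM in PTRVITRO. Rpa2 had 20.2, 19.0 and 19.6 CPM in PVITRO and 20.3, 21.8 and 19.3 CPM in PTRVITRO. In both genes PVITRO replicate 2 and PTRVITRO replicate 3 were the lowest of their groups, and the log2 fold change was 0.07 in each (0.02 and 0.04 without PVITRO replicate 2). Their ratio per kilobase was 1.17 in both groups.

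Fen1, the nuclease that trims the flaps of Okazaki fragments, lies at chr19:10199132-10204169. It had 44.3, 49.4 and 44.9 CPM in PVITRO and 49.7, 50.2 and 52.7 CPM in PTRVITRO. The groups did not overlap, but PVITRO replicate 2 lay just below PTRVITRO replicate 1, and Fen1 was 1 of the 4 genes in which PVITRO replicate 2 was the highest of its group. The ratio was 1.10 (95% interval 1.01 to 1.19, unadjusted p = 0.0269, adjusted p = 0.355, edgeR). With 1 library left out, the unadjusted p stayed below 0.05 in 3 of 6 fits. An antisense gene, Gm10143, shares 1909 exonic bases with Fen1 and had 0.445 and 0.634 CPM, and Tmem258, on the opposite strand as well, shares 130 and had 46.4 and 46.1 CPM. Lig1, the ligase that seals the fragments, had 34.3, 29.8 and 33.0 CPM in PVITRO and 34.7, 32.0 and 31.7 CPM in PTRVITRO, with overlapping groups and a log2 fold change of 0.03.

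Among the nucleotide supply genes, Tyms, the thymidylate synthase (chr5:30058202-30073617), had 46.1, 43.9 and 39.8 CPM in PVITRO and 48.9, 47.2 and 45.9 CPM in PTRVITRO. Only PVITRO replicate 1 reached into the PTRVITRO range. The ratio was 1.10 (95% interval 1.005 to 1.196, unadjusted p = 0.0407, adjusted p = 0.414, edgeR), and the unadjusted p stayed below 0.05 in 3 of 6 fits with 1 library left out. Tk1, with the highest level of the 4 per kilobase of principal transcript but not of the exon union, had 95.8, 85.2 and 90.9 CPM in PVITRO and 92.4, 84.2 and 77.0 CPM in PTRVITRO. Its ratio was 0.938 (95% interval 0.848 to 1.04). Its log2 fold change of -0.09 ran from -0.16 without PTRVITRO replicate 1 to -0.03 without PTRVITRO replicate 3, and that of Tyms from 0.08 without PVITRO replicate 3 to 0.18 without PVITRO replicate 1.

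Rrm1 and Rrm2 encode the subunits of ribonucleotide reductase, which makes deoxyribonucleotides. Rrm1 had 114.1, 114.7 and 114.2 CPM in PVITRO and 118.2, 119.6 and 116.2 CPM in PTRVITRO, so that the groups did not overlap. The log2 fold change of Rrm1 was 0.05 ± 0.04 (SE, adjusted p = 0.669, edgeR), a ratio of 1.03. Rrm2 had 97.8, 94.2 and 98.4 CPM in PVITRO and 105.5, 108.8 and 96.6 CPM in PTRVITRO, with PTRVITRO replicate 3 inside the PVITRO range. The log2 fold change was 0.10 (adjusted p = 0.453, edgeR), and ran from 0.07 without PTRVITRO replicate 2 to 0.15 without PTRVITRO replicate 3. The processed pseudogene Gm48455, with 95.5% identity to Rrm2 over 419 bases, was listed at 5.56 and 7.28 CPM.

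The genes of replicative chromatin and histone mRNA varied around 0. Slbp, which binds the stem-loop of histone mRNA, had 43.3, 41.0 and 45.0 CPM in PVITRO and 43.9, 45.8 and 45.6 CPM in PTRVITRO, a log2 fold change of 0.07 that was 0.03 without PVITRO replicate 2. Uhrf1, which guides maintenance methylation to new DNA, had 86.4, 75.4 and 82.7 CPM in PVITRO and 86.9, 77.7 and 78.2 CPM in PTRVITRO, a log2 fold change of -0.01 that turned above 0 with no scaling factor and with limma-voom. Slbp and Uhrf1 had the highest levels of the role per kilobase of principal transcript, at 22.6 ± 1.06 and 22.7 ± 1.56 CPM in PVITRO, and with the exon union Slbp was at 7.10 and Uhrf1 at 19.1. Chaf1b, a subunit of the chromatin assembly factor that follows the fork, had the lowest, with 10.5, 6.71 and 9.26 CPM in PVITRO and 8.85, 7.80 and 7.74 CPM in PTRVITRO. PVITRO replicate 2 was again the lowest of all 6, and the log2 fold change of -0.10 became -0.27 without it. Chaf1a, its partner, had a log2 fold change of 0.08, and 2692 of its exonic bases overlap Ubxn6 on the opposite strand, at 57.4 and 53.7 CPM. The sum of Chaf1a and Ubxn6 was 88.5, 83.9 and 86.3 CPM in PVITRO and 87.0, 81.8 and 84.0 CPM in PTRVITRO. In that sum the groups overlapped, with no higher PTRVITRO side.

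Cdca7 and Cdca7l encode related zinc finger proteins, and CDCA7 recruits the remodeler HELLS to chromatin. Cdca7 had 47.4, 47.9 and 53.8 CPM in PVITRO and 47.3, 49.4 and 50.8 CPM in PTRVITRO. Cdca7l had 21.6, 15.5 and 20.8 CPM in PVITRO and 21.3, 16.4 and 15.4 CPM in PTRVITRO. Both genes overlapped, with log2 fold changes of -0.02 and -0.10 (that of Cdca7l -0.24 without PVITRO replicate 2), and Cdca7l had one of the largest spreads of the module, with coefficients of variation of 17.1% and 17.9%. Cdca7 stood 3.21 ± 0.55 times above Cdca7l per kilobase in PVITRO and 3.47 ± 0.68 times in PTRVITRO.

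The differences were also read by whether a promoter window holds the E2F-type letters. The 14 genes with a match had a median log2 fold change of 0.02, from -0.15 to 0.27, and 1 of them (Cdc6) had an unadjusted p below 0.05 in edgeR. The 19 genes without a match had a median of 0.07, from -0.10 to 0.14, and 2 of them (Fen1 and Tyms) had an unadjusted p below 0.05. Groups did not overlap in 1 of the 14 (Orc1) and in 3 of the 19 (Pcna, Fen1 and Rrm1). Over all tested genes 11.4% had an unadjusted p below 0.05 and 17.6% had groups that do not overlap. Mcm6, Mcm5 and Pola1, whose windows are printed above, were at 0.10, -0.03 and 0.05. Gins1 (0.31), Ccne2 (0.23), Gins2 (0.16), Rfc2 (0.15), Mcm4 (0.01) and Pole (-0.04), with no RefSeq start held, were in neither set. The matches of Lig1, Mcm7 and Uhrf1 lie at RefSeq starts downstream of the start of the principal transcript. For Fen1 the RefSeq start held lies upstream of the start of its principal transcript, which the bases searched did not reach. Its place among the 19 genes therefore does not describe the letters at that transcript's start.

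The wider replication machinery was read from lists of further genes, and 0 genes of any list were called by edgeR. Of 47 other fork and origin genes, 6 had an unadjusted p below 0.05, all higher in PTRVITRO, against 5.26% of all genes in that direction, and the median log2 fold change was 0.05 (0.03 without PVITRO replicate 2). The 4 with the smallest p were Prim1 (0.17 ± 0.05, SE), Mcm10 (0.18 ± 0.05), Prim2 (0.17 ± 0.06) and Dbf4 (0.13 ± 0.04). Prim1 and Prim2 encode the primase, MCM10 helps to activate the helicase, and DBF4 is the activating subunit of the CDC7 kinase that fires origins. In all 4 the groups did not overlap. The groups of 8 of the 47 stood apart upward and of 2 downward, against 8.27% and 9.33% of all genes.

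Of 30 further nucleotide supply genes, 1 was higher and 5 were lower at an unadjusted p below 0.05 in edgeR, against 5.26% and 6.13% of all genes, with a median log2 fold change of -0.02 that ran from -0.0246 to -0.0002 when each library was left out. The 4 with the smallest p were all lower in PTRVITRO. They were Nme2, a nucleoside diphosphate kinase (-0.17 ± 0.05, SE), Atic, of the last steps of purine synthesis (-0.13 ± 0.04), Cad, of the first steps of pyrimidine synthesis (-0.12 ± 0.04), and Dut, the dUTPase (-0.10 ± 0.03).

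Of 33 further E2F, RB and G1/S control genes, 30 were tested, with a median log2 fold change of 0.005 that ran from -0.01 without PTRVITRO replicate 1 to 0.03 without PVITRO replicate 1. E2f6, a repressive E2F, was higher (0.14 ± 0.05, SE) and Tfdp1, the partner of E2F factors on DNA, was lower (-0.13 ± 0.04), both at an unadjusted p below 0.05 in edgeR, which 5.26% of all genes passed on the higher and 6.13% on the lower side. Among 16 further replicative chromatin genes, with a median of 0.04 (0.01 without PVITRO replicate 2 or without PTRVITRO replicate 1), that held only for Hells, the remodeler named above (0.13 ± 0.04). Among 26 S-phase checkpoint and repair genes, with a median of 0.04, it held for 4, all higher. Among them were Chek1, the kinase of the replication checkpoint (0.23 ± 0.07), Rad1 (0.21 ± 0.07) and Bard1 (0.17 ± 0.06).

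Over the 38 mitosis and G2/M genes, which peak later in the cycle, the median log2 fold change was 0.06, and 7 had an unadjusted p below 0.05 in edgeR, all higher, against 5.26% of all genes, while the groups stood apart upward in 10, against 8.27%. Cenpf, a kinetochore protein, had the smallest p of all the lists (0.21 ± 0.05, SE, adjusted p = 0.140). It was followed by Mad2l1, of the spindle checkpoint (0.13 ± 0.04), Ndc80, which binds microtubules (0.14 ± 0.05), and Cdk1, the mitotic kinase (0.10 ± 0.04). The median of this list ran from 0.02 without PTRVITRO replicate 1 to 0.09 without PVITRO replicate 1, and that of the 39 replication genes from 0.03 without PVITRO replicate 2 to 0.07 without PVITRO replicate 1.

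**Figure D5:**
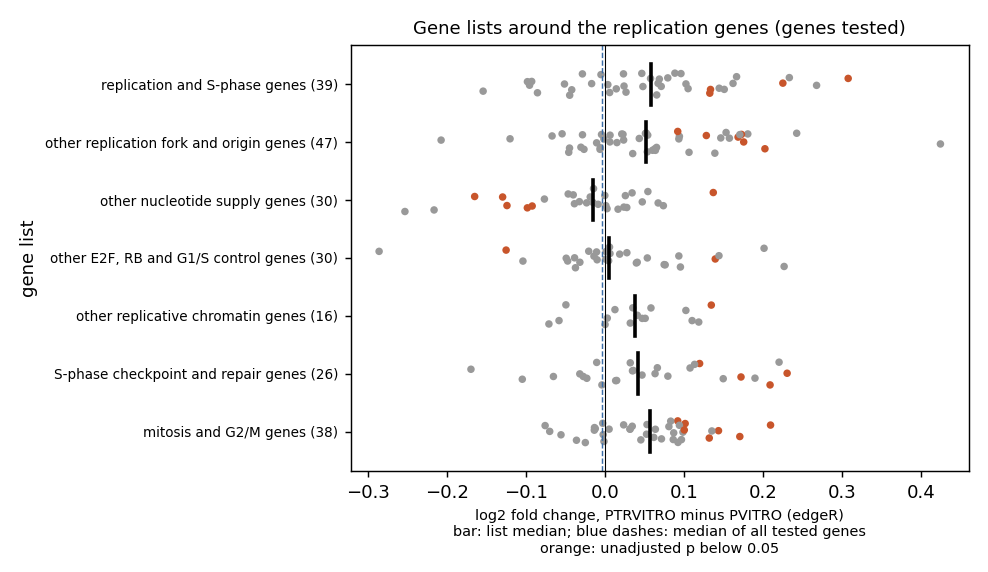
Log2 fold change (PTRVITRO minus PVITRO, edgeR) of each tested gene in the replication module and in 6 related lists, with the number of genes in brackets, black bars for list medians and a dashed line for the median of all tested genes. Orange dots have an unadjusted p below 0.05; the medians lie between -0.02 (other nucleotide supply genes) and 0.06 (the replication module and the mitosis list).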

How the data were processed

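PolyA RNA of 6 cell line samples was sequenced from stranded libraries. Per the labels and methods, the authors aligned reads with STAR 2.6.0a to GRCm38, checked them with FastQC 0.11.5 and quantified genes with RSEM 1.3.1; the deposited table holds expected counts per gene that are not scaled between samples. Here expected counts were rounded, genes were filtered with filterByExpr (minimum count 10, minimum total 15), samples were scaled by the upper quartile, and edgeR 4.0.16 (R 4.3.3) tested the group term, alone in the model, by its quasi-likelihood F statistic. Benjamini-Hochberg adjustment ran over 14217 genes, called below 0.05. SEs and 95% intervals came from the F statistic. The fit was also run on simulated counts with the same biological coefficient of variation for every gene and no shift of single libraries. That run does not show how the intervals behave under such shifts, and its outcome is not reported here. Symbols, positions and lengths came from GENCODE M21 for 53274 of 53465 genes. Copies were searched with BLAST+ 2.17.0 (95% identity, 200 bases).

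The members and lists were chosen with earlier results of these data known. All members are accounted for, with every sample's value for members that had an unadjusted p below 0.05 or groups that do not overlap and for the highest and lowest per kilobase of each role. From each list up to 4 genes with the smallest unadjusted p below 0.05 are named, apart from genes not reported here. Other genes were chosen after their values were seen. Alternatives were TMM, no scaling factor, DESeq2 1.42.0, limma-voom (limma 3.58.1), other filters, the replicate number as a block, and leaving out each library. The exon union as length was added after seeing the data.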

Additional observations from a re-analysis of the deposited data

How the results depend on the processing

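The number of all tested genes called by edgeR, 35, was 111 with DESeq2, 400 with no filter on low counts, 54 when each sample had to hold at least 10 counts, and 8 to 64 with 1 library left out (lowest without PTRVITRO replicate 3, highest without PVITRO replicate 2). Of the 39 replication genes, 0 stayed called under every setting except no filter, which called 1 (Gins1, adjusted p = 0.0351, edgeR). Those with an unadjusted p below 0.05, 4 in edgeR, were 1 with DESeq2, 8 with no filter and 3 to 6 with 1 library left out, while over all genes 1620 became 1018, 2268 and 1124 to 1982. Those whose groups do not overlap, 5, were 8 with no scaling factor and 8 to 14 with 1 library left out, where fewer values are compared and 24.8% to 32.2% of all genes do not overlap. The median log2 fold change of the 39 genes kept its direction throughout, from 0.03 to 0.07.

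Of 273 gene values under the other settings, 269 kept direction and side of the threshold, 1 (Gins1) passed it and 3 turned direction, Rfc3 to -0.0016 when each sample had to hold at least 10 counts, and Uhrf1 to 0.0067 with no scaling factor and 0.0003 with limma-voom. Of 234 values with 1 library left out, 20 turned direction. The ranges of the genes concerned were -0.028 to 0.0567 (Mcm3), -0.0313 to 0.0409 (Mcm4), -0.0137 to 0.2152 (Mcm6), -0.0306 to 0.0793 (Mcm7), -0.0899 to 0.109 (E2f1), -0.0752 to 0.0082 (Pole), -0.0589 to 0.0483 (Rfc3), -0.0302 to 0.0745 (Lig1), -0.271 to 0.048 (Chaf1b), -0.061 to 0.0432 (Uhrf1) and -0.0444 to 0.0442 (Cdca7). The cause was not tested.

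With the replicate number as a block, 68 genes were called, 0 of them replication genes, and 6 of the 39 had an unadjusted p below 0.05. The deviations of libraries with the same number had correlations of 0.11, 0.10 and -0.06, against -0.16 to 0.07 for different numbers. So few libraries cannot decide whether the numbers mark a pairing. The labels name none, and the numbers are not read as a pairing here. E2f2, with the lowest mean count of the 39 genes (96.5), had the widest interval, and Chaf1b, Cdca7l and Pold1 had wider intervals than Orc1 at higher mean counts (219, 483 and 330.2 against 179.7).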
